A study of Mus musculus with 4 samples.

Results

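Fc receptors bind the constant part of antibodies and carry the signal, or the antibody itself, into the cell. The Fc receptor genes described here are Fcgr1, Fcgr2b, Fcgr3, Fcer1g and Fcgrt, 5 of the 8220 genes measured, and every probe set annotated to them was taken, 6 of the 12654 on the array. Fcgr1 has 2 probe sets and the other 4 genes have 1 each. Expression was measured in mouse cells that differentiate in culture into dendritic cells, which present antigen to T cells. The 4 stages were dendritic cell progenitors from bone marrow, cells differentiated from such progenitors for 7 days, cells differentiated for 10 days, and cells differentiated for 10 days and stimulated with the cytokine tumour necrosis factor alpha (TNF) for 16 hours. No strain, genotype, age or number of animals or cultures is given in the sources used here, and the progenitors are described as amplified in vitro for the TNF sample.

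Each stage was measured on 1 array, so no replicate spread exists, no test was possible and every difference below is one between 2 arrays. Levels are linear intensities of probe sets, matched between arrays at the 75th percentile. Values under 428 units, the 60th percentile of all values and here called the stricter floor, are treated as dim. A fold against a dim array is written as "at least", computed against 428 units, and no fold is given where both arrays are dim. Calls of at least 2-fold are counted with a lower floor of 105 units, the 40th percentile, and again with the stricter floor. As a yardstick of disagreement between probe sets, the log2 ratios of the 2 brightest probe sets of a gene were compared. They differed with an SD of 0.83 for day 7 against progenitor (671 genes) and 0.85 for day 10 against day 7 (663 genes). It was 1.09 for day 10 against progenitor (632 genes) and 0.73 for TNF against day 10 (666 genes). Both probe sets were read on the same 2 arrays, so this SD does not measure differences between cultures, RNA samples or arrays that both share.

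In mice, the activating IgG receptors encoded by Fcgr1 (the high-affinity receptor, CD64) and Fcgr3 (a low-affinity receptor, CD16) signal through a shared gamma chain encoded by Fcer1g. The gamma chain carries an immunoreceptor tyrosine-based activation motif (ITAM) that recruits the kinase Syk. Fcgr2b encodes the inhibitory IgG receptor (CD32B), whose tail carries an inhibitory motif (ITIM) that recruits the phosphatase SHIP-1, the product of Inpp5d. Fcgrt encodes the heavy chain of the neonatal Fc receptor FcRn, an MHC class I-like protein that pairs with beta-2-microglobulin and protects IgG from lysosomal breakdown. In dendritic cells these receptors take up antibody-bound antigen for presentation and set the balance between activation and restraint.

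All 5 genes had a promoter window in the RefSeq-derived table of build GRCm38.p6, from 250 bases before to 50 bases after the start site. The windows of Fcgr2b and Fcgrt, the genes with the highest ratios of differentiated cells over progenitors, and of Fcgr1 and Fcgr3, whose ratios were flat or below 0, are printed so that the groups can be compared. Capitals mark GAGGAA, a purine-rich sequence bound by the myeloid factor PU.1, read on either strand (TTCCTC on the printed strand). They also mark TTCNNNGAA, the pattern bound by STAT factors, which reads the same on both strands.
Fcgr2b, chr1:170976022-170976321, minus strand: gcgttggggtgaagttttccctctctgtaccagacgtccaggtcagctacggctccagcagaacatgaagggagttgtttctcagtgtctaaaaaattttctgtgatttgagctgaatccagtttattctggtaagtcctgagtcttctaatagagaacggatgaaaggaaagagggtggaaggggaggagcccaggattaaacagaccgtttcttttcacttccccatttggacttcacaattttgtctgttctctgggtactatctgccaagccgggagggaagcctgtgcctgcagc
Fcgrt, chr7:45103773-45104072, minus strand: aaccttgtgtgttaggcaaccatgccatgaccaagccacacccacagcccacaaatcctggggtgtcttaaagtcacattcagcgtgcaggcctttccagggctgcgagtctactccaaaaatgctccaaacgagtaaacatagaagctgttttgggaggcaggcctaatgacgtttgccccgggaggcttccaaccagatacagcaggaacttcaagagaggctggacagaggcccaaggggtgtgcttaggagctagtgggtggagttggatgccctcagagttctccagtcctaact
Fcgr1, chr3:96293920-96294219, minus strand: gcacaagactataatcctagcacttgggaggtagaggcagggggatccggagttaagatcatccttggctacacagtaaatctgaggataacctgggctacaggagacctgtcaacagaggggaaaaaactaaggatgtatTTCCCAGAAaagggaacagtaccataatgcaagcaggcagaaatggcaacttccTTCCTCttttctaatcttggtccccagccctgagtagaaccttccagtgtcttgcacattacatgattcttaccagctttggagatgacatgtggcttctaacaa
Fcgr3, chr1:171059354-171059653, minus strand: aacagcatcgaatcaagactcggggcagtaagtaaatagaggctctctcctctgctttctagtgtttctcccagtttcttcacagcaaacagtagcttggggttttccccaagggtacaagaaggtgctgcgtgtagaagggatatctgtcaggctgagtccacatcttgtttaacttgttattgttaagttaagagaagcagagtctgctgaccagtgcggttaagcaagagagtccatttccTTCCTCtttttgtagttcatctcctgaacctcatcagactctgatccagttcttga

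GAGGAA occurred once in the Fcgr1 window, 49 bases before the start site, and once in each of the 2 overlapping Fcgr3 windows, next to the start site in the one printed. Its letters are absent from the windows of Fcgr2b, Fcgrt and Fcer1g, and 28.3% of all 32851 windows of this length hold it. Only this spelling was searched, so its absence does not show that a window lacks other sequences that PU.1 binds. The Fcgr1 and Fcgr3 windows share a run of 14 bases around this match, TTCCTTCCTCTTTT, and the longest run shared by any other pair of the 5 genes was 9 bases. TTCNNNGAA occurred only in the Fcgr1 window, 100 bases before the start site, and is held by 8.3% of all windows. The interferon-stimulated response element core, held by 3.44% of all windows, occurred in none of the 6 windows of these genes on either strand. These motifs were chosen after the sequences were seen, overlap in no window shown, and a match is a description of letters, not a site. Spi1, which encodes PU.1, was at 8219 units in progenitors, 12494 at day 7, 13572 at day 10 and 9064 with TNF.

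The cells carried most markers of their label. Itgax, which encodes the dendritic cell integrin CD11c, was at 105 units in progenitors, 6188 at day 7, 21075 at day 10 and 29065 with TNF, while Zbtb46, a dendritic cell factor, lay under 105 units on all 4 arrays. Of 17 dendritic cell markers above 428 units on the day 7 or the progenitor array, 13 passed 2-fold upward at day 7 and 1 downward, where 10.5% of 4311 genes passed upward and 9.72% downward. Other myeloid markers were present as well. Of 13 macrophage markers, whose cells use all of these receptors, 8 were higher and 2 lower at day 7 than in progenitors. The summed level of all 15 markers measured was 22254 units in progenitors, 86297 at day 7, 215009 at day 10 and 158205 with TNF. At day 10 the bright genes Lyz2, Mmp12 and Cd68 gave 72829, 61180 and 44389 units of that sum. The highest level of any probe set was 30560 units on the day 7 array and 137313 on the day 10 array. The part of that difference between arrays in the summed levels was not tested. Csf1r, the receptor of macrophage growth factor, was at 7257 units at day 7 and 983 in progenitors, whereas the complement genes C1qa, C1qb and C1qc lay under 428 units on all 3 arrays of differentiated cells. The summed level of 16 neutrophil markers was 231647 units in progenitors, 144679 and 167796 on the day 7 and day 10 arrays, and 21291 with TNF. Between day 7 and day 10 that sum rose, although 5 of the 16 were lower and 1 higher at the stricter floor (median log2 ratio -0.46). Over all genes 4.65% were lower and 7.26% higher. S100a8 was at 23848 units at day 7 and 57731 at day 10, and Mpo at 5381 and 200 units on these arrays. All 12 NK and T cell markers lay under 428 units on every array, and so did 8 of 15 B cell markers (Cd79a, Ms4a1 and Ebf1 among them) and 8 of 14 mast cell and basophil markers, including Fcer1a and Ms4a2, which encode the other chains of the IgE receptor that shares the gamma chain. The summed level of the mast cell and basophil list lay between 5214 and 7274 units on the 4 arrays, that of the B cell list between 4851 and 8077, and that of the NK and T cell list between 453 and 525. At the stricter floor 1 of 6 mast cell and basophil markers was higher and 3 lower at day 7 than in progenitors. Cpa3, Mcpt8 and Hdc were at 1638, 1734 and 888 units in progenitors and 386, 546 and 210 at day 7. Mcpt1 was at 1589 units in progenitors and 2373 with TNF, and Kit at 647 and 1624 units on these arrays. Some B cell markers were above the stricter floor, 2 in progenitors and 6 at day 10. At that floor 2 of 6 were higher and 0 lower at day 10 than in progenitors. Over all genes 17.3% were higher and 14.8% lower in this comparison. At the floor of 105 units 5 of 10 were higher and 1 lower, where 20.4% of 6198 genes were higher and 16.8% lower. Pax5, a B cell factor, was at 2094 units at day 10 and 857 in progenitors, Vpreb1, a surrogate light chain gene, at 1175 and -291 units on these arrays, and the immunoglobulin heavy chain gene Ighm at 1902 and 2876 units. The part of these cells in the results below was not tested, and in a bulk culture fewer cells of a type cannot be told apart from less RNA per cell.

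Fcgrt, the FcRn heavy chain, had the highest ratios of the 5 genes against the progenitor. Its level was 495 units in progenitors, 2653 at day 7, 4999.9 at day 10 and 3313 with TNF. The progenitor array was the lowest of the 4 and close to the stricter floor, and the day 10 array was the highest. Fcgrt was 5.36-fold higher at day 7 than in progenitors (log2 ratio 2.42), and 64 of the 4311 genes above 428 units on either array had a higher ratio. At day 10 it was 10.1-fold higher than in progenitors (log2 ratio 3.34), with 59 of 4460 genes above it. Between day 10 and day 7 it was 1.88-fold higher (0.91), and between TNF and day 10 it was 1.51-fold lower (-0.59).

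Fcgr2b, the inhibitory receptor, followed the same course with smaller ratios. It was at 1989.6 units in progenitors, 5900.4 at day 7, 8559 at day 10 and 6789.8 with TNF, so all 4 arrays were well above the stricter floor and the progenitor array was again the lowest. The day 7 level was 2.97-fold higher than that in progenitors (log2 ratio 1.57), with 213 of 4311 genes above it, and the day 10 level 4.30-fold higher (2.11), with 213 of 4460 above it. Day 10 exceeded day 7 by 1.45-fold (0.54), and TNF-treated cells were 1.26-fold lower than day 10 cells (-0.33). The coding parts of mouse Fcgr2b and Fcgr3 are known to be very alike outside the tail, and the suffix of this probe set's name (102337_s_at) marks probes that can match more than 1 transcript, so a contribution of Fcgr3 transcripts to the Fcgr2b signal was not tested.

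Fcgr1, the high-affinity activating receptor, stayed within a narrow range on its brighter probe set, 102879_s_at. That probe set was at 2028 units in progenitors, 1603 at day 7, 1787 at day 10 and 1269.8 with TNF. All 4 values lay above the stricter floor, the progenitor value was the highest, and the highest and lowest differed by 1.60-fold. Fcgr1 was 1.27-fold lower at day 7 than in progenitors (log2 ratio -0.34), 1.13-fold lower at day 10 than in progenitors (-0.18) and 1.41-fold lower with TNF than at day 10 (-0.49). The second Fcgr1 probe set, 101793_at, lay below 0 on every array, at -473, -256, -553 and -1049 units in the same order, and gives no ratio. The 2 probe sets of this gene therefore disagree on whether it was above background. The brighter one carries the same suffix as that of Fcgr2b, and whether it matches other transcripts was not tested, so the Fcgr1 level rests on 1 probe set that is uncertain in this way.

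Fcgr3, the low-affinity activating receptor, was dim. It was at 661 units in progenitors, 389 at day 7, 279.8 at day 10 and 434 with TNF. Only the progenitor and TNF arrays exceeded 428 units, and the TNF array did so by little. Fcgr3 was at least 1.54-fold lower at day 7 and at day 10 than in progenitors. With the floor of 105 units the log2 ratios were -0.76 for day 7 against progenitor, -1.24 for day 10 against progenitor and 0.63 for TNF against day 10.

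Fcer1g, the gamma chain that both activating receptors need, was at 224 units in progenitors, 54.4 at day 7, 437 at day 10 and 398 with TNF. Only the day 10 array passed the stricter floor, by less than 1.03-fold. With the floor of 105 units its log2 ratios were -1.09 for day 7 against progenitor, 2.06 for day 10 against day 7 and -0.13 for TNF against day 10, and with the stricter floor they were 0.00, 0.03 and -0.03, so no change of Fcer1g can be read from this probe set. A low value of 1 probe set is not evidence that the transcript was missing.

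**Figure D1:**
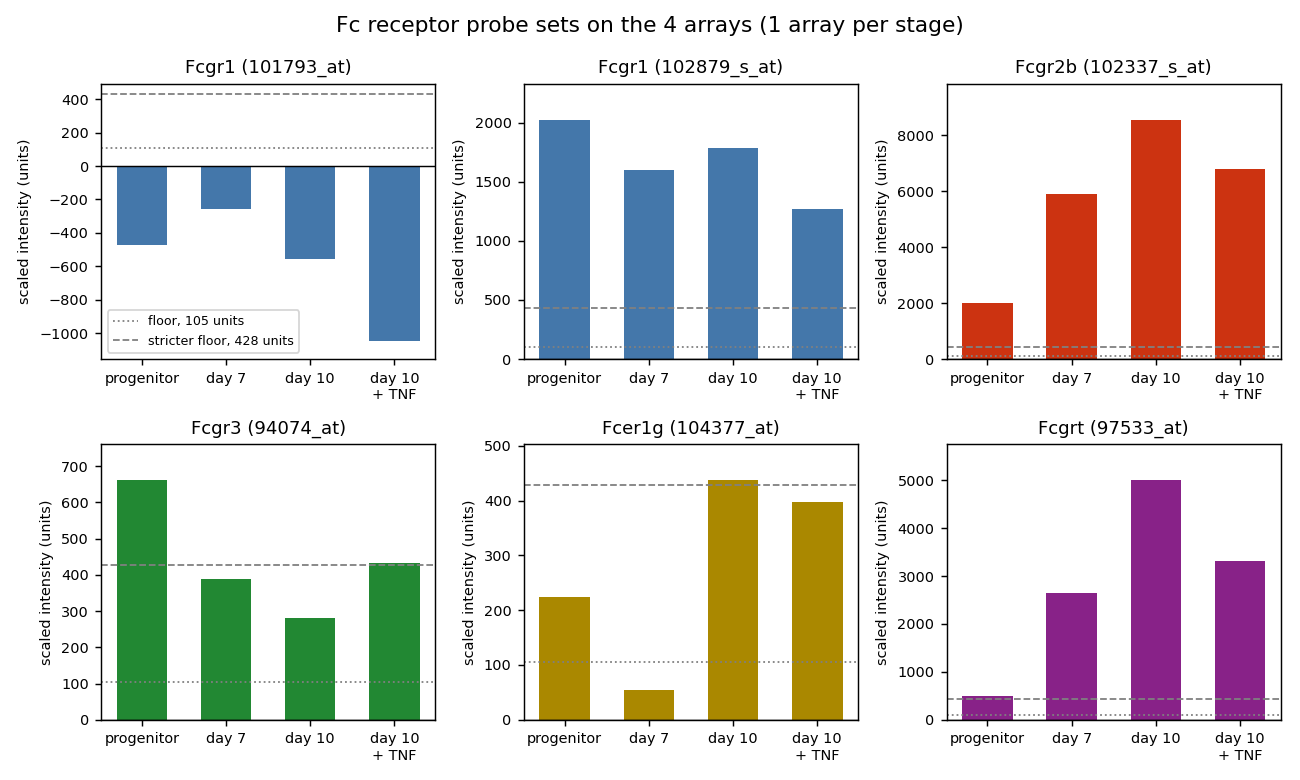
Scaled intensity (units, linear axis) of each of the 6 Fc receptor probe sets on the progenitor, day 7, day 10 and day 10 with TNF arrays, 1 array per bar, with the floors of 105 and 428 units as dotted and dashed lines. Fcgr2b and Fcgrt were lowest in progenitors and highest at day 10, and Fcgr1 was flat on one probe set and below 0 on the other. Fcgr3 exceeded 428 units on the progenitor and TNF arrays only. Fcer1g did so on the day 10 array only, and its day 7 value lay under 105 units.

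Put in order of level, Fcgrt and Fcgr2b gave the same sequence of arrays, progenitor lowest, then day 7, then TNF, then day 10. In both genes only the lowest step, day 7 over progenitor, exceeded the SD between probe sets for that pair of arrays. The steps from day 7 to TNF (log2 ratio 0.32 for Fcgrt and 0.20 for Fcgr2b, against an SD of 0.85) and from TNF to day 10 (0.59 and 0.33, against 0.73) did not. No neighbouring pair of arrays differed beyond that SD for Fcgr1 or Fcgr3. The highest and lowest Fcgr3 arrays, progenitor and day 10, differed beyond it with the floor of 105 units (log2 ratio -1.24 against an SD of 1.09). With the stricter floor that ratio was -0.63, within the SD. For Fcer1g the neighbouring day 7 and progenitor arrays differed beyond the SD (1.09 against 0.83), with the floor of 105 units setting the day 7 value.

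Counted together, 2 of the 5 genes (Fcgr2b and Fcgrt) were at least 2-fold higher at day 7 than in progenitors and 1 (Fcer1g) lower, where 13.4% of all 5957 genes above 105 units were higher and 11.9% lower. With the stricter floor 2 of 4 were higher and 0 lower, where 10.5% of 4311 genes were higher and 9.72% lower. The median log2 ratio of the Fc receptor genes was -0.34 at the first floor and 0.61 at the stricter one, so it depends on how the dim members are treated; those of all genes were -0.04 and -0.07. For day 10 against progenitor 2 of 5 were higher (the same genes) and 1 (Fcgr3) lower, where 20.4% of 6198 genes were higher and 16.8% lower; with the stricter floor 2 of 5 were higher and 0 lower, against 17.3% and 14.8% of 4460 genes. This comparison shares its progenitor array with the first and its day 10 array with the others.

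Between day 10 and day 7 only Fcer1g was counted as higher, 1 of 5, and 0 were lower, where 11.2% of 6123 genes were higher and 8.44% lower. With the stricter floor 0 of 4 were called in either direction, where 7.26% of 4326 genes were higher and 4.65% lower. Between TNF and day 10 the count was 0 of 5 in both directions at both floors, where 8.84% of 6151 genes were higher and 8.76% lower, or 4.71% and 5.15% of 4308 genes with the stricter floor. The arrays also differed in 11 probe sets for bacterial control transcripts. Their median log2 ratio was -0.36 for day 7 against progenitor, 1.50 for day 10 against day 7 (range 0.99 to 1.77), 1.13 for day 10 against progenitor (range 0.45 to 1.43) and -0.50 for TNF against day 10. The day 10 against progenitor ratio of Fcgr2b (2.11) exceeds that control median by less than 2-fold, and that of Fcgrt (3.34) by more. Less the median ratio of probe sets of like brightness, the same ratios were 2.07 for Fcgr2b and 3.45 for Fcgrt. The part of the difference in controls in these results was not tested.

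**Figure D2:**
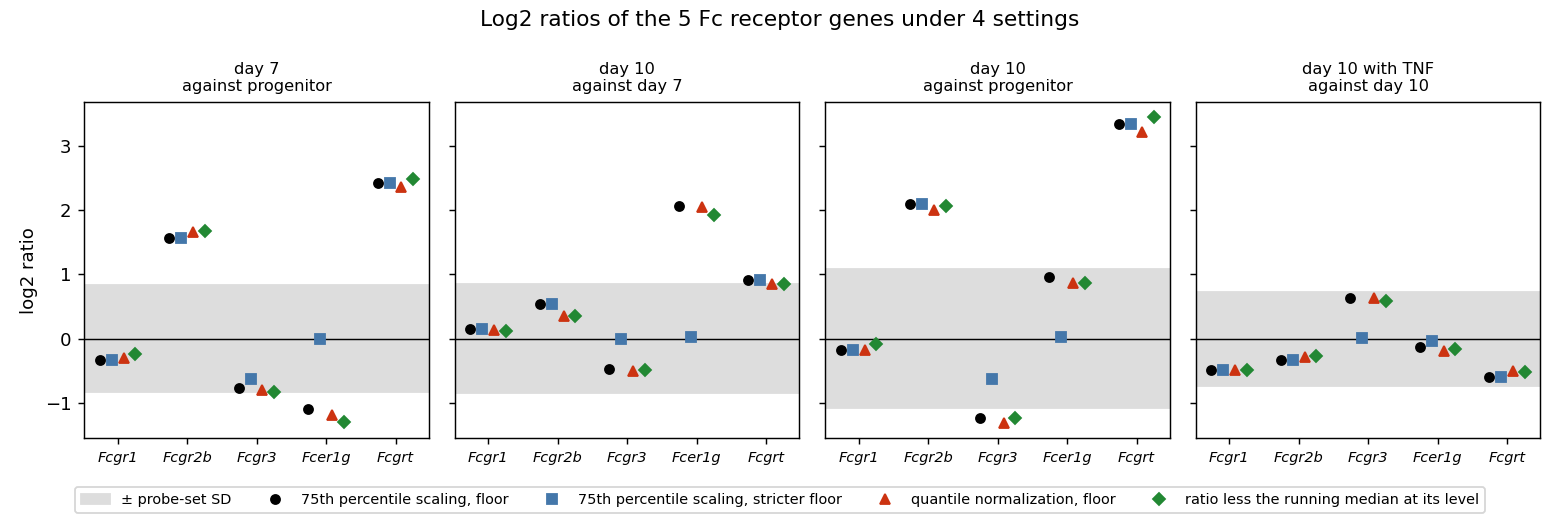
Log2 ratios of Fcgr1, Fcgr2b, Fcgr3, Fcer1g and Fcgrt in the 4 comparisons, with 1 symbol for each of 4 settings of scaling and floor and a grey band of ± 1 SD between probe sets of a gene. Fcgr2b and Fcgrt lay above the band against the progenitor under every setting drawn, all 5 genes lay within it for TNF against day 10, and the ratios of Fcer1g collapsed to about 0 at the stricter floor.

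**Figure D3:**
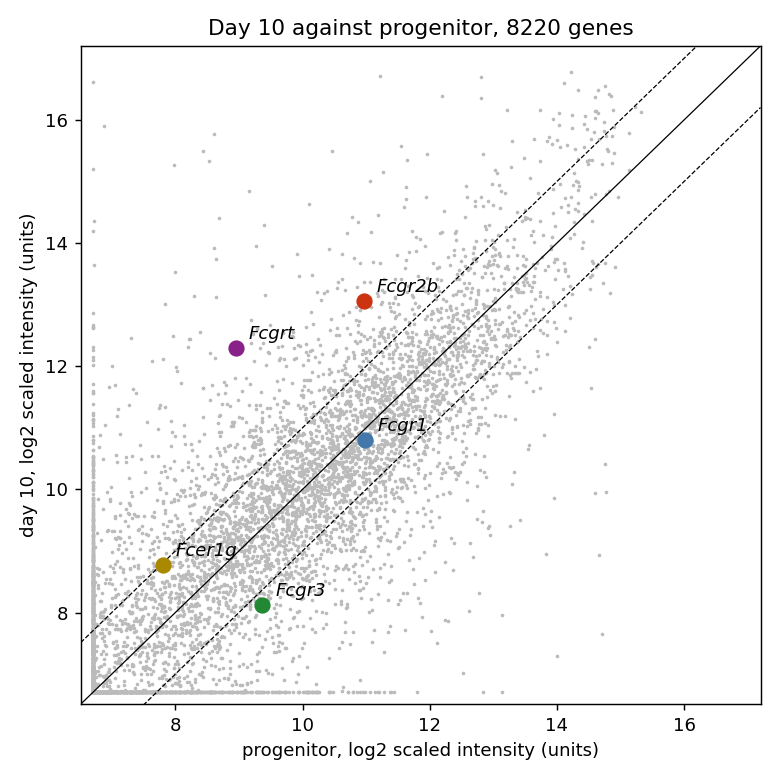
Log2 scaled intensity at day 10 (vertical axis) and in progenitors (horizontal axis) for 8220 genes in grey, floored at 105 units, with the 5 Fc receptor genes in colour; the solid line marks equal levels and the dashed lines 2-fold differences. Fcgrt and Fcgr2b lay above the upper dashed line, Fcgr1 near the solid line, Fcgr3 just below the lower dashed line and Fcer1g close to the upper one near the floor.

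The adaptors that can stand beside or in place of the gamma chain were next compared. Of 26 listed ITAM adaptors and receptors that pair with them, 5 were measured. Tyrobp, which encodes the ITAM adaptor DAP12, was at 19232 units in progenitors, 24019 at day 7, 59506 at day 10 and 36438 with TNF. Its log2 ratio for day 10 against progenitor was 1.63 as scaled (3.09-fold), but 0.60 after quantile normalization and 0.85 adjusted for brightness, both short of 2-fold. For day 10 against day 7 it turned from 1.31 to -0.45 after quantile normalization. Clec4d, a C-type lectin that signals through the gamma chain, was 2.93-fold higher at day 7 than in progenitors, at 4647 units at day 7 and 1587 in progenitors. Its relative Clec4e was at 1799 units with TNF and 236 at day 10, at least 4.20-fold higher with TNF.

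The kinases and adaptors that act downstream of activating Fc receptors were mostly measured, 39 of 50. Syk, the kinase that binds the phosphorylated ITAM, was at 5955 units in progenitors, 9315 at day 7, 9123 at day 10 and 9164 with TNF. It was 1.56-fold higher at day 7 than in progenitors. Its second probe set gave 612 units at day 7 and 364 in progenitors. At day 10 against progenitor 6 of 29 genes of this list were at least 2-fold higher and 3 lower (median log2 ratio 0.31, against 0.02 for all 4460 genes), shares near the 17.3% and 14.8% of all genes. Nckap1l, an actin regulator of blood cells, was 5.31-fold higher, the phosphoinositide 3-kinase subunit gene Pik3cd 4.37-fold, the kinase gene Tec 4.33-fold and the Src-family kinase gene Fgr 3.48-fold. The 3 lower genes were Was, an actin regulator gene, at 2243 units at day 10 and 6346 in progenitors, the kinase gene Mapk14 at 4182 and 9057 units on these arrays, and the phospholipase gene Plcg1 at 114 and 1189 units. With TNF against day 10, 1 of 30 was higher (Pik3r1, 3.82-fold) and 1 lower (Lat2, an adaptor, 2.61-fold), against 4.71% and 5.15% of all genes.

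On the inhibitory side, where Fcgr2b acts, the phosphatase genes differed in course from the receptor. Inpp5d was at 3751 units in progenitors, 2821 at day 7, 4206 at day 10 and 1259 with TNF. It was thus 1.33-fold lower at day 7 than in progenitors, while Fcgr2b was 2.97-fold higher, and 3.34-fold lower with TNF than at day 10, the lowest of its 4 values. Inppl1, which encodes the related phosphatase SHIP-2, was at least 1.92-fold higher with TNF, at 820.2 units with TNF and 383 at day 10. Ptpn6, which encodes the phosphatase SHP-1 used by other ITIM receptors, ranged between 5485 and 8399 units over the 4 arrays. Of 10 genes in this list 2 were higher and 1 lower at day 10 than in progenitors. These counts are near the 17.3% and 14.8% of all genes. Dok2, an adaptor, was 3.62-fold higher and the phosphatase gene Ptpn22 3.0-fold lower. With TNF against day 10, 0 of 10 were higher and 1 (Inpp5d) lower, where 4.71% of 4308 genes were higher and 5.15% lower.

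Other ITIM receptors did not share 1 course with Fcgr2b. Sirpa, the receptor for CD47, was at 3146 units in progenitors, 17668 at day 7, 30765 at day 10 and 15189 with TNF. It was 5.62-fold higher at day 7 than in progenitors. Pirb, an MHC class I receptor, was 2.16-fold higher at day 10 than in progenitors, a log2 ratio of 1.11 that fell short of 2-fold after quantile normalization (0.91). Ceacam1 went the other way and was 4.73-fold lower at day 10 than in progenitors. With TNF against day 10, 3 of 5 measured genes above the stricter floor were lower and 0 higher (median log2 ratio -1.02, against -0.04 for all genes, of which 5.15% were lower): Sirpa was 2.03-fold lower, Ceacam1 at least 2.68-fold and Milr1, a mast cell inhibitory receptor gene, at least 2.27-fold.

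FcRn needs beta-2-microglobulin, and the 2 genes were not parallel. B2m was at 16313 units in progenitors, 13547 at day 7, 52226 at day 10 and 40658 with TNF. At day 7 it was 1.20-fold lower than in progenitors, while Fcgrt was 5.36-fold higher. Day 10 exceeded day 7 by 3.86-fold for B2m, with log2 ratios of 1.95 as scaled here and 1.09 once quantile-normalized, and by 1.88-fold for Fcgrt, with 0.91 and 0.85. Among 6 genes of the MHC class I fold above the stricter floor, 5 were higher and 0 lower at day 10 than in progenitors (median 1.65), where 17.3% of all genes were higher. After quantile normalization 3 of these 5 fell short of 2-fold, with log2 ratios of 0.76 for B2m (1.68 as scaled), 0.48 for H2-K1 (1.62) and 0.74 for H2-D1 (1.84), the last 2 encoding class I heavy chains. Procr, the protein C receptor of that fold, was 3.50-fold higher with TNF than at day 10, at 3151 units with TNF and 899.9 at day 10, and the lipid-presenting Cd1d1 3.26-fold, while Fcgrt was 1.51-fold lower.

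**Figure D4:**
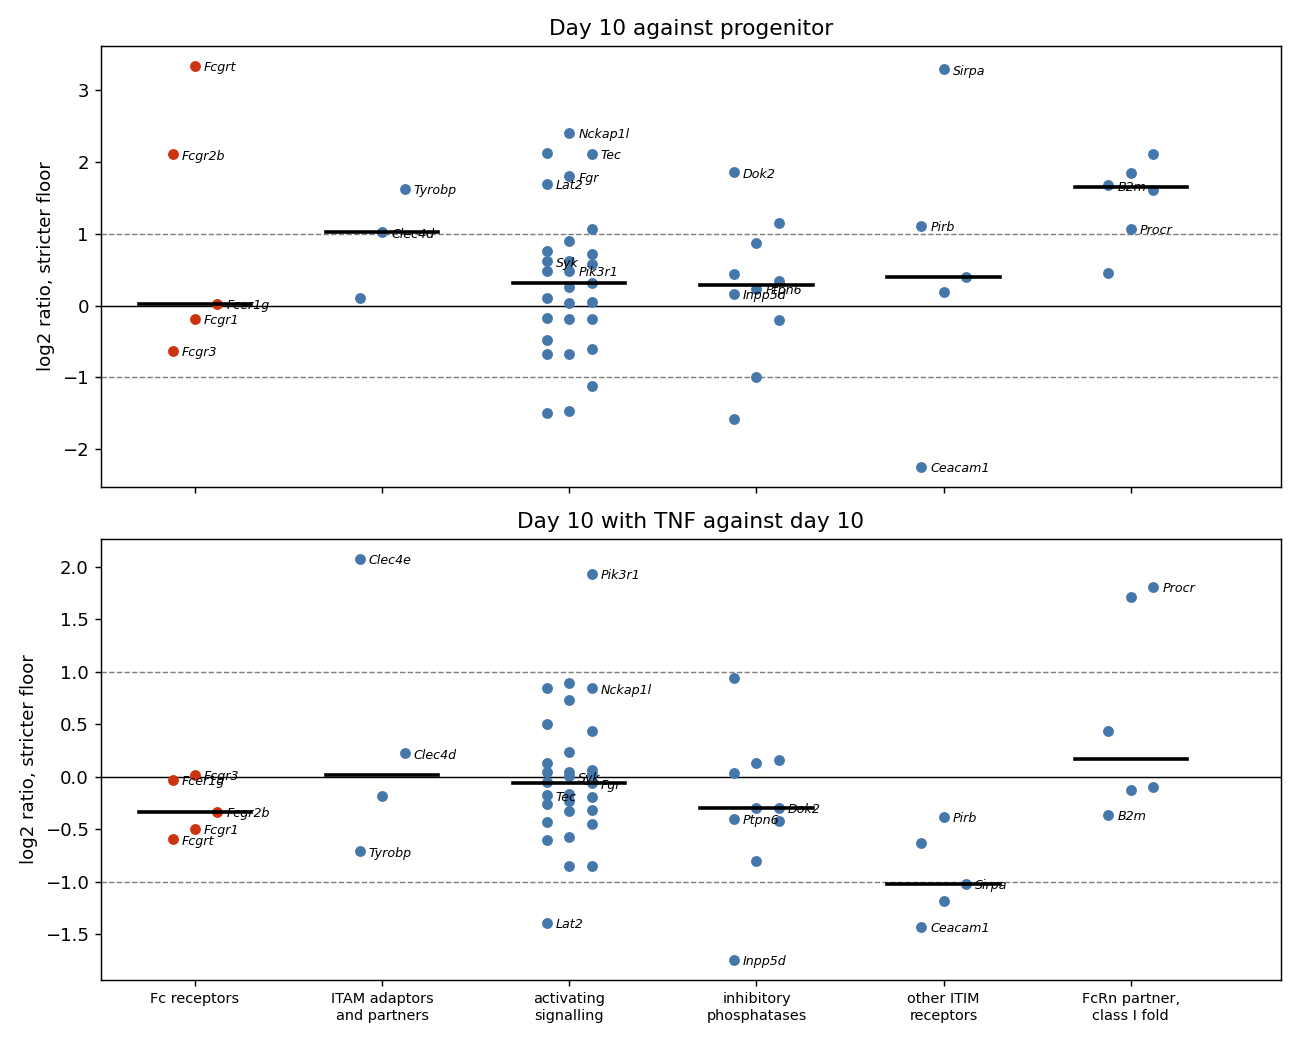
Log2 ratios with the stricter floor for the 5 Fc receptor genes (red) and for the measured genes of 5 signalling and partner lists (blue), with the median of each as a black bar, for day 10 against progenitor (upper panel) and day 10 with TNF against day 10 (lower panel); genes dim on both arrays are left out and dashed lines mark 2-fold. Fcgrt and Fcgr2b lay at 3.34 and 2.11 in the upper panel, and Inpp5d lay at the bottom of the lower one while all 5 Fc receptor genes stayed within the dashed lines.

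Receptors for antibody outside the 5 genes were mostly dim. Of 8 measured genes of that list 5 lay under 428 units on every array, among them Fcer1a and the low-affinity IgE receptor gene Fcer2a. Pigr, which carries IgA and IgM across epithelia, was 1.69-fold higher at day 7 than in progenitors, at 801 units at day 7 and 472 in progenitors, and Trim21, a receptor for antibody in the cytosol, was at 829.9 to 1137 units on the 4 arrays. Fcho1, listed by name although it encodes an endocytic protein and no Fc receptor, was 2.50-fold lower at day 7 than in progenitors. Fcgr4 had 0 probe sets annotated to it alone and was therefore not analysed here.

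Among cytokines, receptors and factors known to act on Fc receptor genes, 25 of 27 were measured. The interferon gamma receptor gene Ifngr1 was 2.47-fold lower at day 7 than in progenitors and 2.40-fold lower with TNF than at day 10, at 1309 units with TNF and 3135 at day 10. The interleukin-10 receptor gene Il10ra was at least 3.74-fold higher at day 10 than in progenitors, and Il13ra1, a subunit of the receptor for interleukins 4 and 13, at least 3.45-fold higher. The TNF receptor gene Tnfrsf1b was 5.01-fold higher at day 7 than in progenitors, and Tnfrsf1a was 2.65-fold lower with TNF than at day 10. Irf8, a factor of myeloid cells, was 9.06-fold higher at day 10 than in progenitors and 2.50-fold higher with TNF than at day 10.

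The genes whose profile over the 4 arrays lay nearest to each Fc receptor were found by the root-mean-square difference of centred log2 levels, floored at 428 units, among genes with a peak within 4-fold. For Fcgr2b these were Bri3, Tec and Fam50a, at differences of 0.03, 0.07 and 0.08, with 25 of 2091 candidates within 0.2. Bri3 was at 3535 units in progenitors, 10873 at day 7, 14954 at day 10 and 12238 with TNF. For Fcgrt the nearest were Npc1, a lysosomal cholesterol transporter gene, Fabp4, a fatty acid-binding protein gene, and Car4, a carbonic anhydrase gene, at 0.13, 0.14 and 0.14, with 7 of 2893 candidates within 0.2. Npc1 was at 2159 units in progenitors, 12155 at day 7, 18557 at day 10 and 12378 with TNF.

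For Fcgr1 the nearest profiles were those of Lrpprc, Thap7 and Ebp, but 406 of 3888 candidates lay within 0.2, as a flat profile has many neighbours. For Fcgr3 (Nusap1, Ilf2 and Eri2) and Fcer1g (Mpdu1, Nptx2 and Tbp) the profile was mostly floor, with 387 of 2874 and 706 of 2226 candidates within 0.2. The likeness covers 4 arrays and says nothing of shared function.

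**Figure D5:**
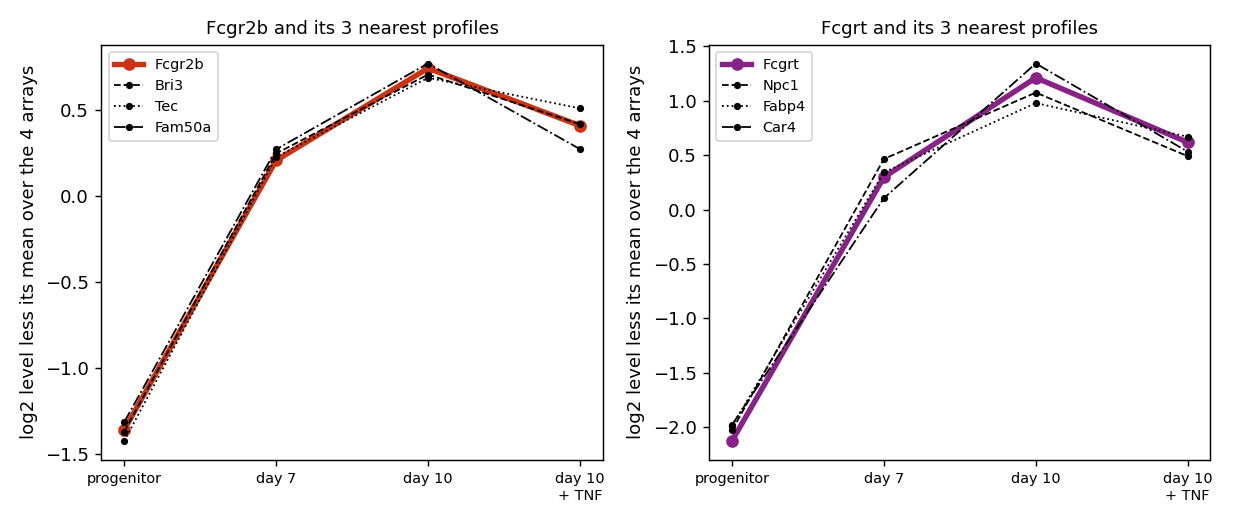
Log2 level less its mean over the 4 arrays, with the stricter floor, for Fcgr2b (left) and Fcgrt (right) as coloured lines and for their 3 nearest genes as black lines, over progenitor, day 7, day 10 and day 10 with TNF. Every line was lowest in progenitors and highest at day 10, and the genes near Fcgr2b lay within 0.08 of it (root-mean-square) against 0.14 for those near Fcgrt.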

How the data were processed

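Total RNA of 4 mouse samples was measured on 1 Affymetrix murine genome array each, per the labels and the platform annotation. The deposited values are probe-set intensities; no source used here names the authors' software, background method or detection calls, and 22.8% to 24.3% of probe sets per array are below 0. The first version of this array design is known to hold probe sets made to the wrong strand; no source used here lists them, so a low value is not read as absence. The number of arrays limits the precision.

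Of 12654 probe sets 10298 have 1 gene symbol, 363 several and 1993 none; symbols were updated through Entrez numbers. The probe set with the highest mean stood for a gene. Arrays were scaled to a common 75th percentile (factors 0.962 to 1.05), floored and converted to log2 with Python 3.11.15, numpy 2.4.6 and pandas 2.3.3. The procedure was tested on simulated data with changes larger than 2-fold placed in bright genes. That test does not cover dim genes such as Fcgr3 and Fcer1g. Its noise was of a fixed small size and was not taken from the spread of these data. It therefore checks the calculation and says nothing of the error of the ratios given here. Named genes were the members, up to 4 genes per list with the largest ratio in a comparison, the partners B2m, Syk, Inpp5d, Ptpn6 and Tyrobp, and the 3 nearest profiles; genes outside this rule (Spi1, Itgax, Zbtb46, Csf1r, the C1q genes, Was, Mapk14, Plcg1, Pax5, Vpreb1, Ighm, Cd79a, Ms4a1, Ebf1, Fcer1a, Ms4a2, Fcer2a) were chosen after their values were seen, and Fcho1 was listed by name. Members and lists were chosen with earlier results of these data known. The genes named beside the counts and sums of marker lists were also chosen after their values were seen. Alternatives were the scaling, floor, probe set and fold.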

Additional observations from a re-analysis of the deposited data

How the results depend on the processing

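Of 120 log2 ratios of the 5 genes under 6 alternatives, 115 moved by less than the SD between probe sets, and 5 moved by more. Those of Fcgr2b and Fcgrt were not among these 5. Both genes have 1 probe set and lay above 428 units on all 4 arrays. The other floors and the median of probe sets therefore could not move their ratios, and only the alternatives of scaling could. The day 7 against progenitor ratio of Fcer1g was 0.00 at the stricter floor and -2.04 at a lower floor of the 25th percentile, and its day 10 against day 7 ratio was 0.0299 and 3.01; the choice of floor sets these values. The TNF against day 10 ratio of Fcgr1 was -2.48 with the median of its 2 probe sets, 1 of which is below 0 throughout, and then 1 gene counted as lower. At the stricter floor the Fc receptor genes lower at day 7 fell to 0, those higher at day 10 against day 7 to 0, and those lower at day 10 against progenitor to 0. With a 3-fold rule 1 gene was higher and 0 lower at day 7, and 0 were lower at day 10 against progenitor.

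Over all genes, the counts of higher and lower genes at the stricter floor were 453 and 419 for day 7 against progenitor, 314 and 201 for day 10 against day 7, 771 and 660 for day 10 against progenitor, and 203 and 222 for TNF against day 10. At the lower floor they were 1343 and 1292, 1271 and 1125, 1698 (lower only, the higher count staying within 1.5 times), and 1169 and 1156. With the 3-fold rule they were 390 and 264, 288 and 195, 711 and 494, and 177 and 177. The median log2 ratio of all genes for day 10 against day 7 was 0.06 as scaled and -0.06 on the intensities as deposited, and for day 10 against progenitor 0.07 and -0.05. Ratios of Fcer1g and Fcgr3 are limited by their dimness. No paired analysis was possible because each group holds 1 array.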
